A study of Saccharomyces cerevisiae with 10 samples.

Results

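The RNA of yeast cells without THO2 was set directly against that of cells without HPR1, on the 2 arrays titled tho2∆ and the 3 arrays titled hpr1∆, which are 5 of the 10 arrays in the series. The tho2∆ strain was RK2-6C, with tho2∆::KanMX4, and the hpr1∆ strain was SChY58a, with hpr1∆::kanMX4. Both were labelled MATa haploids of the W303 background that carry ura3-1, trp1-1, ade2-1, leu2-3,112, can1-100 and his3-11,15, so these mutations are common to both sides of the comparison. Each strain is 1 isolate, grown to mid-log phase in YPAD, which is rich medium with adenine. Replicates are labelled as biological, but nothing says that they came from separate cultures, so a p-value reflects only how much the arrays of one strain varied, which may be technical. The other arrays, 2 of sub2∆ (DLY23, sub2∆::HIS3) and 3 of W303-1A (WT), entered no test here, and their levels are given beside some genes.

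THO2 and HPR1 encode core subunits of THO, a complex that travels with RNA polymerase II and helps to package the nascent transcript. With the helicase Sub2 and the adaptor Yra1 it forms TREX, which hands the mRNA to the export receptor. Loss of THO is known in yeast for poor transcription of long, GC-rich or repeated genes, and for transcripts that stay hybridised to their DNA template and provoke recombination. Because both proteins sit in one complex, the comparison asks where the transcriptomes of the 2 deletions differ from each other.

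The deposited values are intensities on a linear scale, 1 per probe set and array, with medians from 1425 to 1485 on the 5 arrays. Differences are given as log2(intensity + 16) of tho2∆ minus hpr1∆, with standard errors (SE), so a positive value means higher in tho2∆ and a dim gene's change is understated. Of 5716 probe sets, 4781 had at least 2 values in each strain and were tested, and 935 were not. A probe set was called where its limma adjusted p was under 0.05, with Benjamini-Hochberg adjustment over all 4781. Cells of the table were empty 717 and 667 times on the tho2∆ arrays, against 12, 9 and 7 times on the hpr1∆ arrays. Within these 5 arrays the number of empty cells and the strain cannot be told apart, and an alternative that uses the 414 empty cells of WT replicate 2, against 66 and 38 on the other WT arrays, is therefore given beside calls, list counts and list medians. It is called the empty-cell term below. The term is estimated from WT replicate 2 alone against WT replicates 1 and 3, so any other difference between these arrays enters it. A probe set empty on WT replicate 2, or on both other WT arrays, gives no estimate of the term. Such probe sets stayed in the counts and medians given with the term, with their strain difference unadjusted. How many of the tested probe sets this concerns was not counted. WT replicate 2 lay nearer to replicate 3 (SD of the log2 difference 0.288) than replicate 1 did (0.379). Whether a call lost or a sign turned with the term reflects empty cells or other differences between WT arrays was not tested. The arrays of a strain lay close together, with a mean within-strain SD of 0.0934 in tho2∆ and 0.0718 in hpr1∆ on the log2 scale. The hpr1∆ replicates 2 and 3 were closer (SD of their log2 difference 0.0815) than the other pairs of one mutant strain in this comparison (0.144, 0.159 and, in tho2∆, 0.179).

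The strains differed at 2857 of the 4781 tested probe sets, 59.8% of them. The tho2∆ level was higher at 1202 (25.1%) and lower at 1655 (34.6%), so 42.1% of the calls were higher, against 30.7% after quantile normalization. At least a 2-fold difference was reached by 120 probe sets higher in tho2∆ (2.51%) and by 118 lower (2.47%). Both tho2∆ arrays lay above all hpr1∆ arrays at 1579 probe sets (33%) and below all of them at 2049 (42.9%). With 1 probe set per gene, 4562 genes were tested, of which 1153 were higher and 1580 lower in tho2∆, and the median difference was -0.04. The count of 2857 became 1240 with the empty-cell term and 1821 where all 10 arrays shared 1 estimate of the spread.

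**Figure D1:**
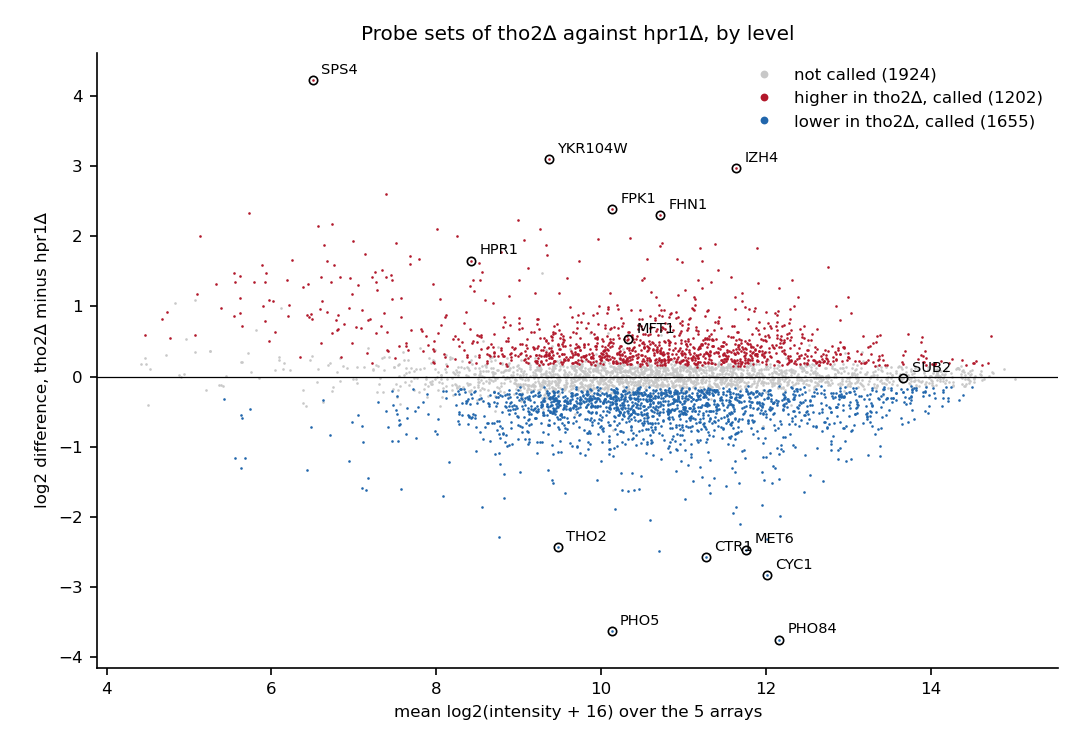
Log2 difference of tho2∆ minus hpr1∆ (vertical axis) against the mean log2(intensity + 16) over the 5 arrays (horizontal axis), 1 point per tested probe set, coloured by call, with 14 genes circled. The 1202 higher and 1655 lower calls spread over all levels. The highest difference, that of SPS4, is at a low level, and the lowest, that of PHO84, is at a high one.

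Each deleted gene was low in its own strain. THO2 read 322 and 183 in tho2∆, against 1428, 1308 and 1411 in hpr1∆, a log2 difference of -2.43 ± 0.21 (SE, limma adjusted p = 0.000247). HPR1 read 651 and 686 in tho2∆, against 188, 209 and 209 in hpr1∆, a log2 difference of 1.65 ± 0.07 (limma adjusted p = 2.79e-05). The groups did not overlap for either gene, each array was low for the gene its label names, and neither deleted gene read near 0. Where the probes lie relative to the deleted stretches was not analysed here.

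The other THO genes split. MFT1, a THO subunit, read 1618 and 1563 in tho2∆, against 1090.4, 1101 and 1079 in hpr1∆, and was higher by 0.54 ± 0.05 (limma adjusted p = 0.000305). TEX1, the THO subunit with WD repeats, read 602 and 464 in tho2∆, against 797, 738 and 766 in hpr1∆, and was lower by a log2 difference of -0.52 ± 0.11 (0.00715). THP2, the remaining THO subunit, read 376 and 427 in tho2∆, on either side of 396, 425 and 395 in hpr1∆, and did not pass the test (log2 -0.01, limma adjusted p = 0.874), although it was called lower after quantile normalization (-0.24, limma adjusted p = 0.0415). The level of MFT1 was 1573 on average in sub2∆ and 852.7 in WT, and that of TEX1 was 536 in sub2∆ and 742 in WT.

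The partners of THO in TREX moved little. SUB2, the helicase, read 12443 and 13406 in tho2∆, against 13351, 13156 and 12732 in hpr1∆, with a log2 difference of -0.02 ± 0.06 (limma adjusted p = 0.801). GBP2, an SR-like protein that binds mRNA with THO, was higher, at 7939 and 8181 in tho2∆, against 5408, 6920 and 6516 in hpr1∆ (log2 0.37 ± 0.11, limma adjusted p = 0.0259). Its call was lost without tho2∆ replicate 1 (limma adjusted p = 0.0665) or replicate 2 (0.0924), and with the empty-cell term (0.106). HRB1, its paralog, did not differ (log2 0.01). YRA1, the adaptor, was lower by a log2 difference of -0.14 ± 0.05 (limma adjusted p = 0.0455), a call that was lost without any single array of the 5, with a highest adjusted p of 0.173 without hpr1∆ replicate 2. Of the 9 THO/TREX genes, 3 were thus higher and 3 lower, counting the deleted genes. This is 33.3% each way, against 25.3% higher and 34.6% lower of all genes.

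**Figure D2:**
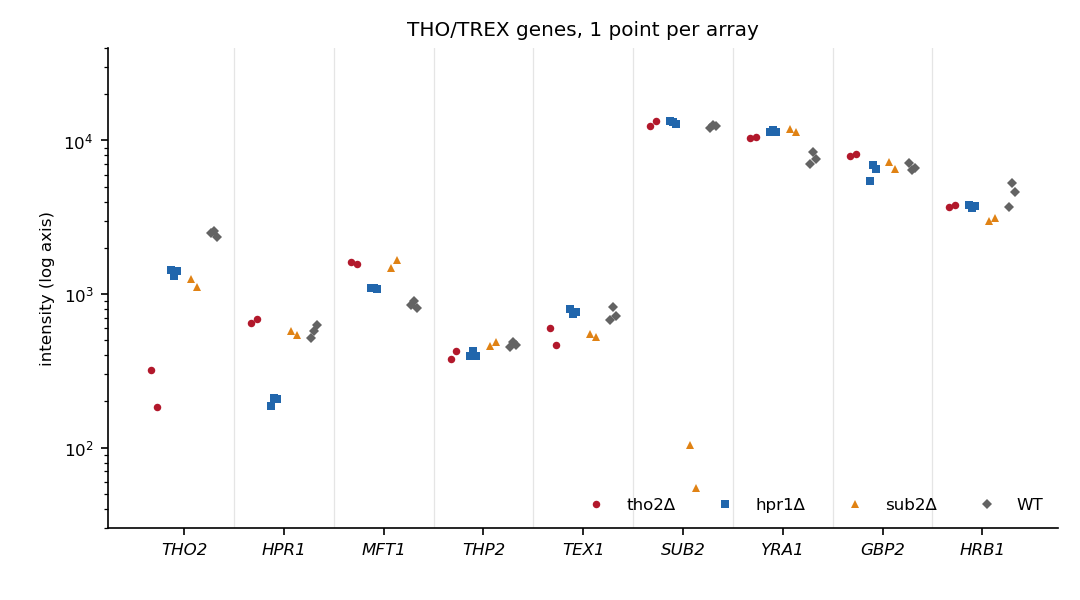
Intensity (log axis) of the 9 THO/TREX genes on each array of tho2∆, hpr1∆, sub2∆ and WT, 1 point per array. THO2 is lowest on the tho2∆ arrays (322 and 183) and HPR1 on the hpr1∆ arrays (188 to 209). MFT1 is higher in tho2∆ than in hpr1∆ and TEX1 is lower.

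Genes beside the deleted loci were checked because a deletion cassette can alter its neighbours. Whether it did so was not tested, and 59.8% of all tested probe sets were called. On chromosome XIV, next to THO2, YSF3, a splicing factor subunit, read 1196 and 1338 in tho2∆, against 732, 621 and 651 in hpr1∆, higher by 0.91 ± 0.09 (limma adjusted p = 0.000386). SRV2, an actin regulator, was lower by a log2 difference of -0.44 ± 0.07, and AAH1, the adenine deaminase, did not pass the test (-0.10). YNL140C was not measured under that name. The calls of YSF3 and SRV2 were lost with the empty-cell term (limma adjusted p = 0.132 and 0.107). Outside the test, YSF3 averaged 619 in sub2∆ and 756 in WT, and SRV2 3982 and 4449. On chromosome IV, next to HPR1, RUB1, a ubiquitin-like modifier, was higher by 0.27 ± 0.05. Outside the test, RUB1 averaged 2443 in sub2∆ and 1819 in WT, and MTQ2, described next, 1578 and 1276. MTQ2, a methyltransferase of a translation release factor, was lower by a log2 difference of -0.30 ± 0.07, a call lost without tho2∆ replicate 2 (limma adjusted p = 0.0535) and with the empty-cell term (0.0748). YCF1, a vacuolar transporter, and RGP1, a trafficking factor, did not pass the test (0.03 and -0.13), though RGP1 did without tho2∆ replicate 2 (-0.25, limma adjusted p = 0.0274).

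The mating type genes were measured with gaps, and of those particular to a cells only MFA1 and MFA2 could be tested. MFA1, an a-factor gene, read 12540.5 and 13748 in tho2∆, against 4011, 7348 and 7140 in hpr1∆, and was higher by 1.14 ± 0.26 (limma adjusted p = 0.0104). MFA2, the second a-factor gene, read 10300 and 10860.5 in tho2∆, against 6894, 9015 and 9185 in hpr1∆ (log2 0.35, limma adjusted p = 0.0575). The other 5 genes particular to a cells could not be tested. STE2, the alpha-factor receptor, was empty on both tho2∆ arrays and both sub2∆ arrays, against 7952, 9776 and 9669 in hpr1∆. STE6, BAR1 and AGA2 were empty on the same arrays, and ASG7 on 1 tho2∆ array. Of the alpha-cell genes, the pheromone gene MF(ALPHA)1 did not pass the test (log2 0.09) and was dim in both strains.

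SAG1, the alpha-cell agglutinin, was higher by 0.74 ± 0.10, at 1696 and 2076 in tho2∆, against 1159, 1160.5 and 1048 in hpr1∆ (limma adjusted p = 0.00123). MF(ALPHA)2 was higher by 1.08 ± 0.11 from a dim level, with 157 and 119 in tho2∆, against 53.7, 57.9 and 57.8 in hpr1∆. Its sign turned with the empty-cell term (-0.08). STE3, the a-factor receptor of alpha cells, did not pass the test (log2 0.17).

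The marker genes, which are mutant alleles common to both strains, differed in part. LEU2 read 1127 and 1029 in tho2∆, against 3041, 2595 and 2688 in hpr1∆ (log2 -1.35 ± 0.09, limma adjusted p = 9.63e-05). URA3 read 7085 and 7145 in tho2∆, against 4646, 4546 and 4822 in hpr1∆ (log2 0.61 ± 0.05, limma adjusted p = 0.000251), and its sign turned with the empty-cell term (-0.10). ADE2 was lower by a log2 difference of -0.34 ± 0.10, a call lost without hpr1∆ replicate 2 (limma adjusted p = 0.0549) or tho2∆ replicate 1 (0.129), and with the empty-cell term (0.071). HIS3 read 495 and 500.1 in tho2∆, against 506, 509 and 495 in hpr1∆, and did not differ beyond this spread, nor did CAN1 (log2 0.12).

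Among the 15 genes highest in tho2∆ against hpr1∆, 4 are known from sporulation, the formation of spores by starved diploid cells. SPS4, a sporulation gene, read 529.7 and 490.1 in tho2∆, against 14.6, 12.9 and 9.32 in hpr1∆ (log2 4.22 ± 0.09, limma adjusted p = 1.24e-05). Its hpr1∆ values lie under the added 16, so the size of this difference is set by the offset, while its WT arrays read 50.2, 53.4 and 37.4. RIM4, an RNA-binding protein of meiosis, read 1064 and 1533 in tho2∆, against 275, 280.2 and 226 in hpr1∆ (2.23 ± 0.17). RRT12, a protease-like protein of spore wall formation, and MUM3, another spore wall gene, were higher by 2.15 and 2.00. The call of MUM3 was lost with the empty-cell term (0.52, limma adjusted p = 0.199), and WT replicate 2 read 901 for it, against 304 and 317 on the other WT arrays.

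The other genes at this end had varied roles. IZH4, a membrane protein linked to zinc, read 10465 and 11488 in tho2∆, against 807, 1641 and 1987 in hpr1∆ (2.97 ± 0.36, limma adjusted p = 0.000807), and it lost its call with the empty-cell term (4.35, limma adjusted p = 0.0626). FPK1, a kinase that activates lipid flippases, read 3033 and 3022 in tho2∆, against 593, 566 and 534 in hpr1∆ (2.39 ± 0.06). FHN1, a plasma membrane protein, read 4343 and 4413 in tho2∆, against 862, 903 and 857 in hpr1∆ (2.30 ± 0.05). PIG1, which is thought to target a phosphatase to glycogen synthase, was higher by 2.11, and SIZ1, a ligase of the modifier SUMO, by 1.95.

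GEP4, a mitochondrial phosphatase on the way to cardiolipin, was higher by 1.98, and RRG8, which is needed for mitochondrial genome maintenance, by 2.60 with unequal tho2∆ arrays (693 and 330.2, against 71.5, 63.5 and 63.0 in hpr1∆). SET6, a protein with a SET domain, was higher by 2.18. YKR104W, YML082W and YBR013C, whose functions are less known, were higher by 3.10, 1.96 and 2.34. YBR013C read 123 and 126 in tho2∆, against 15.4, 10.9 and 9.44 in hpr1∆, again under the offset. In the strains outside the test, FPK1 averaged 3182 in sub2∆ and 1016 in WT, PIG1 1453 and 282, GEP4 3238 and 806, and FHN1 3116 and 2205.

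The 15 lowest genes were led by phosphate uptake. PHO84, the high-affinity phosphate transporter, read 1059 and 852 in tho2∆, against 13279, 13287 and 12271 in hpr1∆, which is 13.4-fold higher in hpr1∆ (log2 -3.75 ± 0.10, limma adjusted p = 1.73e-05). PHO5, the secreted acid phosphatase, read 189 and 283 in tho2∆, against 2512, 3260.4 and 3449 in hpr1∆ (-3.63 ± 0.20). PHO84 averaged 4482 in sub2∆ and 13474 in WT, so the tho2∆ level was the lowest of the 4 strains. PHO5 was variable in WT, with 2095, 642 and 1203.

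Genes of copper uptake, methionine synthesis and respiration were among the rest. CTR1, the high-affinity copper transporter, read 849 and 814 in tho2∆, against 5667, 4759 and 4656 in hpr1∆ (log2 -2.57 ± 0.09). MET6, the methionine synthase, read 1189 and 1274 in tho2∆, against 7502, 6822 and 6302 in hpr1∆ (-2.46 ± 0.08). The S-adenosylmethionine synthetases SAM2 and SAM1 were lower, at log2 -2.32 and -1.99. CYC1, the main cytochrome c, read 1422 and 1111 in tho2∆, against 9030, 9080 and 8925 in hpr1∆ (-2.83 ± 0.10), and averaged 2839 in sub2∆ and 5444 on the 2 filled WT arrays.

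The complex III genes QCR10 and RIP1, the internal NADH dehydrogenase NDI1 and the mitochondrial kinase FMP48 had log2 differences of -2.04, -1.94, -1.88 and -1.85. OAC1, a mitochondrial carrier of oxaloacetate and sulfate, read 1452 and 1265 in tho2∆, against 6105, 5661 and 5861 in hpr1∆ (-2.10). YER053C-A and YHR050W-A, small genes whose function is less known, had -2.49 and -2.28, and THO2 itself was among the 15. In sub2∆ the averages were 960 for MET6, 610 for CTR1, 1103 for RIP1 and 481 for NDI1, against 8739, 8458, 4053 and 1640 in WT. Of the 30 genes at both ends, the calls of IZH4 and MUM3 were lost with the empty-cell term, and the other 28 kept theirs. Among these, CYC1, OAC1 and YER053C-A had no value on WT replicate 2, so the term could not be estimated for them. Their kept calls are no check on empty cells.

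**Figure D3:**
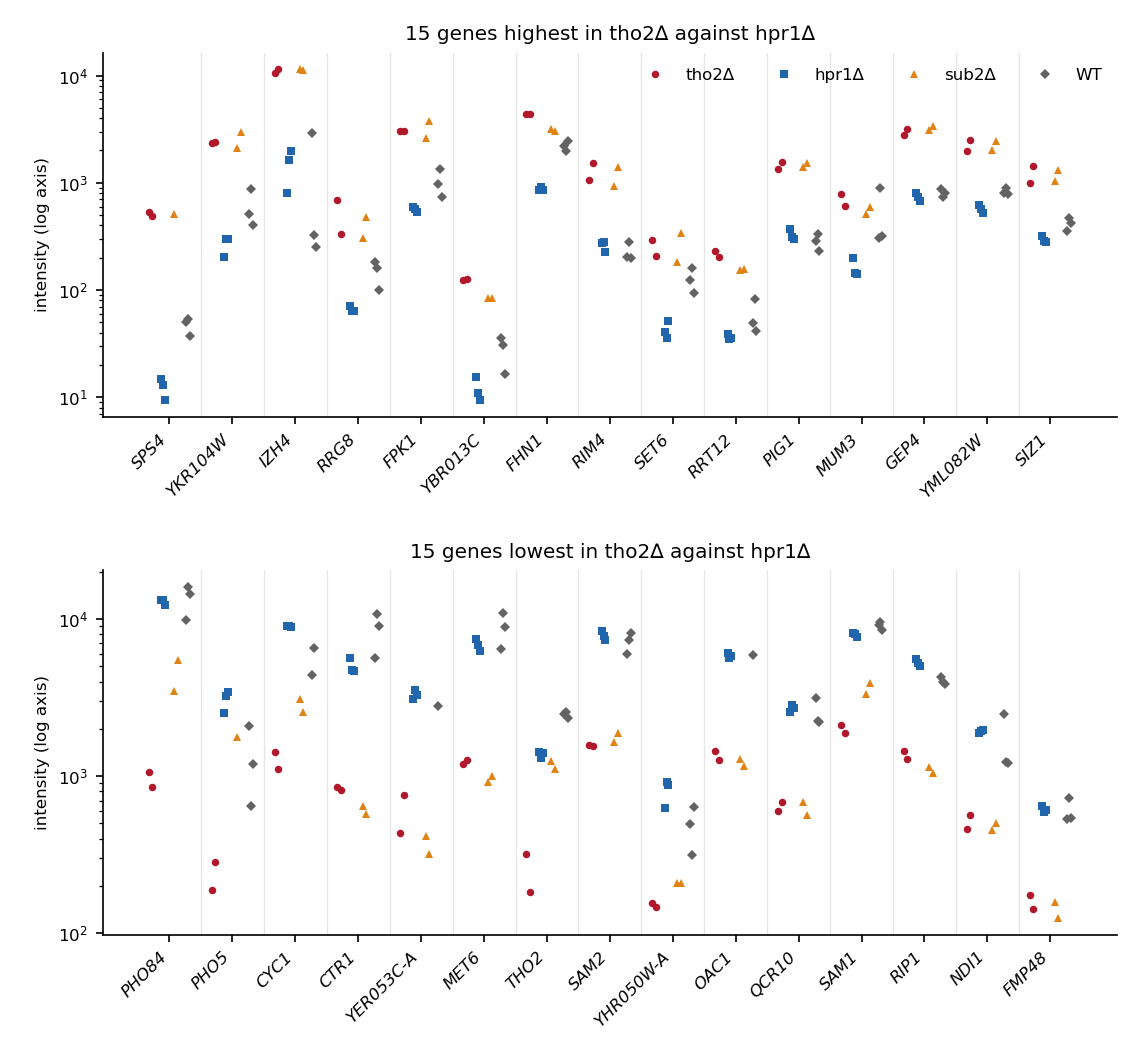
Intensity (log axis) of the 15 genes highest (top) and the 15 lowest (bottom) in tho2∆ against hpr1∆, 1 point per array of tho2∆, hpr1∆, sub2∆ and WT. The tho2∆ and hpr1∆ arrays do not overlap for any of the 30 genes, which the choice of genes required. PHO84 is lower in tho2∆ (1059 and 852) than on any sub2∆ array.

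Counts of list members here and below stand beside 25.3% higher and 34.6% lower of all tested genes. With the empty-cell term they stand beside 510 higher and 730 lower of 4781 probe sets. Genes of respiration were lower in tho2∆ almost throughout. Of 40 tested genes for the respiratory chain and the ATP synthase, 37 were lower and 1 higher in tho2∆, and 19 were lower by 2-fold or more, with a median of -0.96 against -0.04 over all genes. Members were also grouped by role, a grouping made after values were seen. All 9 genes of the cytochrome bc1 complex were lower, with a median of -1.18, and both cytochrome c genes. All 4 succinate dehydrogenase genes were lower (median -0.79), as were 8 of 9 genes of cytochrome c oxidase (-1.10) and 12 of 13 of the ATP synthase and its inhibitor (-0.80). COX12, an oxidase subunit, read 2611 and 2526 in tho2∆, against 6288, 6431 and 6332 in hpr1∆ (-1.30 ± 0.05, limma adjusted p = 2.52e-05).

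The exceptions were few. NDE2, an external NADH dehydrogenase, was higher by 0.65 ± 0.09, at 312 and 252 in tho2∆, against 181, 171 and 169 in hpr1∆, a call lost after quantile normalization (limma adjusted p = 0.116). COX5B, the oxidase subunit used mainly without oxygen, and ATP18 did not pass the test (-0.12 each) and were named after their values were seen. Every median of the respiratory list lay between -1.04 and -0.94 over all the alternatives run, and 26 of the 40 stayed lower with the empty-cell term. The list's median on single arrays was -0.94 and -0.98 in tho2∆, between -0.03 and 0.02 in hpr1∆, -1.05 and -1.25 in sub2∆ and between -0.62 and -0.32 in WT, all relative to the hpr1∆ mean.

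The citric acid cycle and mitochondrial translation followed. All 11 tested cycle genes were lower, with a median of -0.64, and 5 of them with the empty-cell term. ACO1, the aconitase, read 4769 and 4841 in tho2∆, against 9156, 9050.1 and 9057 in hpr1∆ (log2 -0.92 ± 0.05, limma adjusted p = 5.45e-05). IDH2, a subunit of isocitrate dehydrogenase, and KGD1 and KGD2, of the 2-oxoglutarate dehydrogenase, were lower, at log2 -0.78, -0.79 and -0.84. The calls of KGD1 and KGD2 were lost with the empty-cell term (limma adjusted p = 0.0604 and 0.149).

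Of 64 tested mitochondrial ribosomal protein genes, 55 were lower and 1 higher (median -0.48). MRPS12 read 1982 and 2193 in tho2∆, against 3912, 3778 and 3847 in hpr1∆ (-0.88 ± 0.06), and MRPL38, RSM23 and MRP49 were lower, at log2 -0.71, -0.66 and -0.56. MRPS16 was higher (0.61), a call lost with the empty-cell term (limma adjusted p = 0.0857). Genes of the cytosolic ribosome had few calls in either direction, with 19 of 121 higher (15.7%) and 9 lower (7.44%). The shares over all genes were 25.3% and 34.6%. The median of the cytosolic list was 0.04 and became -0.001 after array medians were subtracted. With the empty-cell term 9 of these genes were higher and 2 lower. Without hpr1∆ replicate 2 the counts were 8 and 5, and without hpr1∆ replicate 3 they were 10 and 6. Where the spread was allowed to follow intensity, 46 of the 121 were higher and 17 lower. Of all 4781 probe sets, 1272 were higher and 1710 lower under that alternative. The small share of calls in this list thus depends on how the spread is estimated. Many of these have near-identical copies, such as RPS8B (-0.41) and RPS1B (0.30), so their single values are uncertain.

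**Figure D4:**
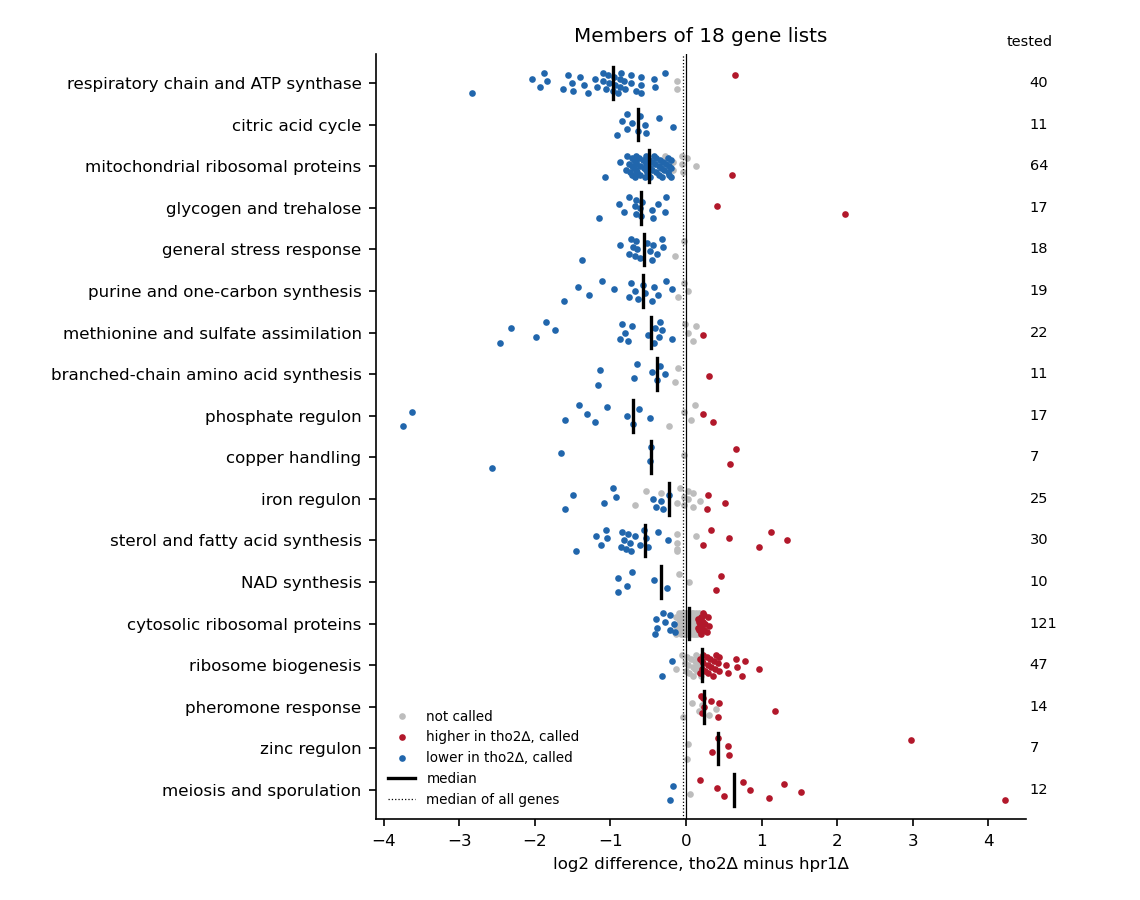
Log2 difference of tho2∆ minus hpr1∆ for each tested member of 18 gene lists, coloured by call, with each list's median as a bar and the median of all genes (-0.04) as a dotted line. The number at the right is that of tested members. Respiratory chain genes lie mostly below 0 (median -0.96), and ribosome biogenesis genes mostly above (0.21).

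Reserve carbohydrate and general stress genes were lower as well. Of 17 tested genes of glycogen and trehalose, 15 were lower and 2 higher (median -0.60). GPH1, the glycogen phosphorylase, read 2227 and 2002 in tho2∆, against 4560, 4907 and 4683 in hpr1∆ (log2 -1.15 ± 0.07, limma adjusted p = 7.7e-05). TPS2 and TSL1, of the trehalose synthase complex, and NTH2, a trehalase-like gene, were lower, at log2 -0.75, -0.88 and -0.60, while PIG1 and the glycogenin GLG1 (0.41) were higher. The call of GLG1 was lost with the empty-cell term (limma adjusted p = 0.203). Of 18 tested general stress genes, 16 were lower and 0 higher (median -0.56). GPX1 (-0.15) and HSP26 (-0.03) did not pass the test and were named after their values were seen.

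CTT1, the cytosolic catalase, read 626 and 711 in tho2∆, against 1795, 1809 and 1673 in hpr1∆ (log2 -1.38 ± 0.07, limma adjusted p = 5.97e-05). SOD2, the mitochondrial superoxide dismutase, GAD1, a glutamate decarboxylase, and GRE3, an aldose reductase, were lower, at log2 -0.87, -0.73 and -0.66. The WT arrays themselves differed for CTT1, with 711 on replicate 2 and 2519 and 1026 on the others. With the empty-cell term 6 glycogen and trehalose genes and 8 stress genes were lower. The calls of CTT1 (-0.22, limma adjusted p = 0.785), TPS2 (-0.05, 0.946) and TSL1 (-0.03, 0.978) were lost with it. Where all 10 arrays shared the spread, 7 glycogen and trehalose genes and 8 stress genes were lower, beside 1081 of all 4781 probe sets.

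Several biosynthetic pathways of amino acids and nucleotides were lower in tho2∆. Of 19 tested genes of purine and one-carbon metabolism, 16 were lower and 0 higher (median -0.57). ADE17, a late enzyme of purine synthesis, read 649.9 and 699.8 in tho2∆, against 2094, 2254 and 1951 in hpr1∆ (log2 -1.61 ± 0.08, limma adjusted p = 4.45e-05). GCV2 and GCV1, of the glycine cleavage system, and SHM2, the cytosolic serine hydroxymethyltransferase, were lower, at log2 -1.42, -1.29 and -1.11. The uncalled members GUA1, IMD4 and ADE4 had -0.11, -0.02 and 0.03, and were named after their values were seen.

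Of 22 tested genes of methionine and sulfate metabolism, 17 were lower and 1 higher (median -0.47), and with the empty-cell term 15 were lower and 0 higher (median -0.74). The steps that make methionine and S-adenosylmethionine had 5 of 6 lower and a median of -1.92, against 5 of 7 lower and -0.41 for the steps from sulfate to sulfide. MUP1, the methionine permease, read 1826 and 1830.0 in tho2∆, against 3304, 3277 and 3277 in hpr1∆ (-0.84 ± 0.05). MET30, the ubiquitin ligase subunit that restrains the pathway, was higher by 0.23, a call lost without hpr1∆ replicate 1, hpr1∆ replicate 2 or tho2∆ replicate 2 (limma adjusted p = 0.054, 0.0786 and 0.0887), and with the empty-cell term (0.734). A further 7 genes of the list, MET4 and MET28 among them, were not tested because of empty cells.

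Branched-chain amino acid synthesis had 8 of 11 genes lower and 1 higher (median -0.38), and with the empty-cell term 7 lower and 0 higher (median -0.60). BAT1, the mitochondrial aminotransferase, read 6766 and 6595 in tho2∆, against 14859, 14685 and 14451 in hpr1∆ (-1.13 ± 0.05), and LEU1, LEU4 and ILV5 were lower, at log2 -1.17, -0.68 and -0.65. LEU3, the regulator of the pathway, was higher by 0.30, a call lost without tho2∆ replicate 2, hpr1∆ replicate 2 or hpr1∆ replicate 3 (limma adjusted p = 0.0727, 0.0572 and 0.0515), and its sign turned with the empty-cell term (-0.22). Of 6 tested genes of histidine synthesis and GCN4, 4 were lower (median -0.29, and 3 at a median of -0.63 with the empty-cell term), HIS4 most clearly (-0.97 ± 0.09) and then HIS2 (-0.66). Of 10 tested NAD synthesis genes, 6 were lower and 2 higher (median -0.34), against 6 and 0 with the empty-cell term (median -0.61). Of these, BNA3 was lower, at 1170.3 and 1198 in tho2∆, against 2259.7, 2191 and 2210.5 in hpr1∆ (-0.90 ± 0.05).

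Phosphate and metal genes split by role. Of 17 tested phosphate genes, 11 were lower and 2 higher (median -0.70), and 7 were lower by 2-fold or more. The counts were 9 lower and 0 higher with the empty-cell term. All 4 VTC genes, which make polyphosphate in the vacuole, were lower (median -0.91), as was PHM8, a phosphatase, at 761 and 799.7 in tho2∆, against 2137, 2074 and 2113 in hpr1∆ (log2 -1.42 ± 0.05). SPL2, an inhibitor of low-affinity uptake, was lower, at log2 -1.60. The low-affinity transporters PHO90 and PHO91 were higher, by 0.35 and 0.23. The call of PHO91 was lost without tho2∆ replicate 2 or hpr1∆ replicate 2 (limma adjusted p = 0.0867 and 0.0526) and those of both with the empty-cell term (PHO90, 0.0512; PHO91, 0.165).

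Of 7 tested copper genes, 4 were lower and 2 higher (median -0.46). Without the dimmest 25% of probe sets, 2 of the 4 that were left were lower and 2 higher, with a median of 0.06, and without tho2∆ replicate 1 the median was -0.22 and without tho2∆ replicate 2 it was -0.30. With CTR1, FRE7, a metal reductase, was lower, at log2 -1.66 ± 0.12, at 398 and 334 in tho2∆, against 1369, 1134 and 1071 in hpr1∆. The metallothionein probe set of CUP1-1, which can bind copies of that gene, was higher (0.58), as was CRS5 (0.66), the other metallothionein, whose call was lost with the empty-cell term (limma adjusted p = 0.133). SOD1, the copper-zinc superoxide dismutase, was lower, at log2 -0.47. MAC1, the copper-sensing activator, was lower, at log2 -0.46, a call lost without hpr1∆ replicate 1, hpr1∆ replicate 3 or tho2∆ replicate 1 (limma adjusted p = 0.0725, 0.0762 and 0.0679), and with the empty-cell term (0.0947).

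Of 25 tested iron genes, 10 were lower and 3 higher (median -0.23), which is 40% lower against 34.6% of all genes. The list had 9 lower and 0 higher with the empty-cell term (median -0.60), and 7 and 1 where all 10 arrays shared the spread. FRE1, the main surface reductase, read 1111 and 1246 in tho2∆, against 3971, 3124 and 3003 in hpr1∆ (-1.49 ± 0.13). FET3, the multicopper oxidase of iron uptake, was lower, at log2 -1.61, with hpr1∆ arrays that varied (3107, 1921 and 1756), and AFT1, the iron regulator, at -0.93. FRE1 and FET3 averaged 787 and 564 in sub2∆ and 9374 and 7027 in WT, so both mutants of this comparison stood below WT by value. Of 7 tested zinc genes, 5 were higher and 0 lower (median 0.42), with ZRT3, IZH1 and ZAP1 at 0.42, 0.57 and 0.56 beside IZH4. Of the 7, 1 was called higher with the empty-cell term, and the calls of IZH1 and ZAP1 were lost (limma adjusted p = 0.0516 and 0.639).

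Sterol synthesis was lower, with its regulators and a fatty acid elongase going the other way. Of 30 tested genes of sterol and fatty acid synthesis, 19 were lower and 6 higher (median -0.54). In the mevalonate part of the pathway 8 of 9 genes were lower (median -0.82), and from squalene synthesis to ergosterol 10 of 13 (-0.56). MVD1, the mevalonate decarboxylase, read 2564 and 2392 in tho2∆, against 7199, 6589 and 6753 in hpr1∆ (log2 -1.46 ± 0.06, limma adjusted p = 3.34e-05). ERG13, the HMG-CoA synthase, ERG26 and ERG28 were lower, at log2 -1.12, -1.19 and -1.06.

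HMG2, the second HMG-CoA reductase, was higher by 0.96, where HMG1 was lower (-0.87). ELO1, a fatty acid elongase, read 6525 and 6804 in tho2∆, against 2514, 2635 and 2769 in hpr1∆ (1.33 ± 0.06), and 12570 on average in sub2∆. UPC2, the sterol-sensing activator, was higher by 1.13 ± 0.06, and OLE1, the fatty acid desaturase, by 0.57. HMG1 was named after its value was seen. With the empty-cell term 17 of the 30 stayed lower and 4 higher.

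**Figure D5:**
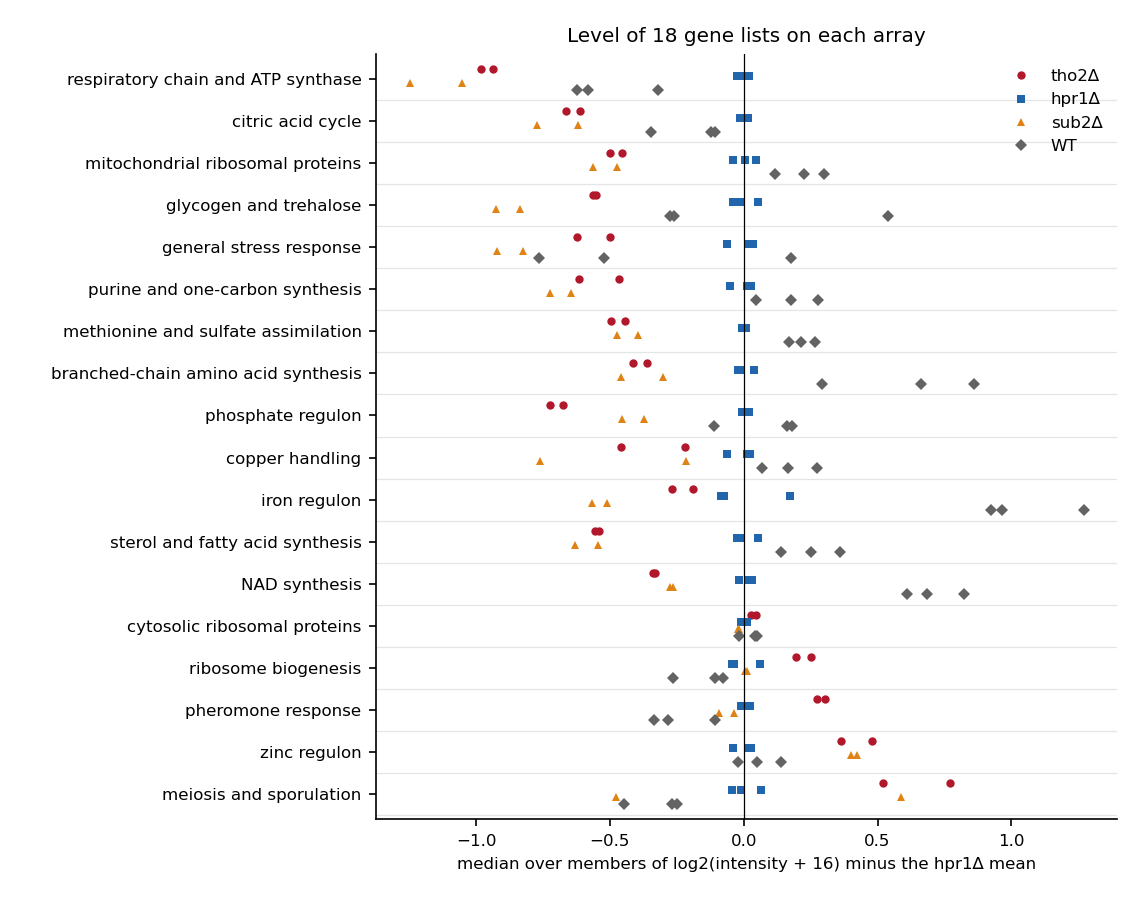
Median over the tested members of 18 gene lists of log2(intensity + 16) minus each member's hpr1∆ mean (horizontal axis), 1 point per array of tho2∆, hpr1∆, sub2∆ and WT, over the members filled on that array. The hpr1∆ arrays lie near 0 by construction. The tho2∆ arrays stand at -0.94 and -0.98 for the respiratory chain and at -0.72 and -0.68 for the phosphate regulon.

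Genes that build ribosomes leaned to the higher side. Of 47 tested ribosome biogenesis genes, 26 were higher and 2 lower (median 0.21, and above 0 under every alternative run). This is 55.3% higher, against 25.3% of all genes. MAK16, a factor of the large subunit, read 5140.0 and 5454 in tho2∆, against 2713, 2596 and 2775 in hpr1∆ (log2 0.97 ± 0.06, limma adjusted p = 8.01e-05), with UTP9, NOP4 and RRP9 at 0.78, 0.67 and 0.53. Of the 47, 5 were called higher with the empty-cell term, beside 510 of all 4781 tested probe sets. Of the 2 lower genes, UTP20 had -0.32, a call lost with the empty-cell term (limma adjusted p = 0.477), and NSR1 (-0.18) lost its call without any single array other than hpr1∆ replicate 3, the highest limma adjusted p being 0.109 without tho2∆ replicate 2, and it lost it with the empty-cell term (0.246).

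Of 14 tested genes of the pheromone response, 8 were higher and 0 lower (median 0.24), which is 57.1% higher against 25.3% of all genes. PRM1, a membrane fusion protein of mating, read 209 and 173 in tho2∆, against 74.7, 76.2 and 74.1 in hpr1∆ (1.18 ± 0.08), and its sign turned with the empty-cell term (-0.39). GPA1, the G protein alpha subunit, and STE7, a kinase of the cascade, were higher by 0.34 and 0.42, with the call of STE7 lost under the empty-cell term (limma adjusted p = 0.0787), and FUS1, a cell fusion gene, by 0.44, with its sign turned likewise (-0.33). The count of 8 became 4 without hpr1∆ replicate 3, 3 with the empty-cell term and 2 where all 10 arrays shared the spread. Of all 4781 probe sets, 510 were higher with the empty-cell term and 740 where all 10 arrays shared the spread. FUS3, the last kinase of the cascade, was empty on both tho2∆ arrays.

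Of 30 meiosis and sporulation genes, 18 could not be tested, and of the 12 others 9 were higher and 2 lower (median 0.63). The 9 became 4 with the empty-cell term (median 0.39) and 5 after quantile normalization (median 0.20). SPR28, a septin of sporulation, read 281 and 299.6 in tho2∆, against 102, 86.5 and 84.2 in hpr1∆ (1.52 ± 0.09). SSP2 and OSW1, spore wall genes, were higher by 1.29 and 1.10, of which SSP2 lost its call with the empty-cell term (limma adjusted p = 0.0594) and OSW1 after quantile normalization (0.0725). All 12 lay in the dimmest 25% of tested probe sets, and without tho2∆ replicate 1, when more members could be tested, the median was 0.12, and it was 0.34 without tho2∆ replicate 2. The lower SPO1 (-0.21) had 0.01 with the empty-cell term, and SPS1 (-0.17) lost its call without tho2∆ replicate 2, hpr1∆ replicate 2 or hpr1∆ replicate 3 (limma adjusted p = 0.0595, 0.0757 and 0.0805), and with the empty-cell term (0.406).

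Lists on the known work of THO/TREX were read beside these, a choice made after values had been seen. Of 12 tested genes of mRNA export and TREX-2, 3 were higher and 4 lower (median 0.02), against 25.3% higher and 34.6% lower of all genes, and with the empty-cell term 1 was higher and 1 lower. CDC31, a centrin that is part of TREX-2, was higher by 0.57 ± 0.08 and SUS1, another TREX-2 subunit, lower, at log2 -0.40 ± 0.09, with the sign of SUS1 turned by the empty-cell term (0.11). Of 25 nuclear pore genes, 7 were higher and 6 lower (median -0.01), against 6 and 0 with the empty-cell term and 5 and 9 after quantile normalization. Among them were the basket proteins MLP2 and MLP1 at 0.63 and 0.48, and NSP1, a central pore protein, at -0.36, which lost its call with the empty-cell term (limma adjusted p = 0.113).

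Of 14 tested genes of RNA polymerase II elongation, 7 were higher and 2 lower (median 0.22), against 4 and 0 with the empty-cell term (median 0.34). PAF1, the namesake of the Paf1 complex, read 3092 and 3122 in tho2∆, against 2119.7, 2080.5 and 2177 in hpr1∆ (log2 0.54 ± 0.05, limma adjusted p = 0.000309). RTF1, SET2 and SPN1 were higher by 0.42, 0.56 and 0.36, of which SET2 lost its call with the empty-cell term (limma adjusted p = 0.125). The lower pair, SPT16 (-0.18) and CDC73 (-0.17), lost their calls without any single array other than tho2∆ replicate 1 for SPT16 and tho2∆ replicate 2 for CDC73, and with the empty-cell term (limma adjusted p = 0.405 and 0.182).

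TOP1, a DNA topoisomerase that relieves supercoils, was the 1 higher gene of 8 tested for removal of RNA-DNA hybrids. It read 3235 and 3931 in tho2∆, against 1496, 1562 and 1793 in hpr1∆ (1.14 ± 0.11, limma adjusted p = 0.000391), and averaged 3282 in sub2∆ and 1360 in WT. NAB3, an RNA-binding protein of transcription termination, was lower, at log2 -0.61 ± 0.07, and PIF1, a DNA helicase, at -0.34, a call lost with the empty-cell term (limma adjusted p = 0.059). Of 14 homologous recombination genes, 6 were higher and 1 lower (median 0.09). With the empty-cell term 1 was higher and 2 lower (median 0.02), and after quantile normalization 4 were higher and 4 lower (median -0.07). RAD59, a strand annealing factor, was higher by 0.85 ± 0.06, a call lost with the empty-cell term (limma adjusted p = 0.0552), EXO1, a nuclease, by 0.49, and MRE11, of the end resection complex, was lower, at log2 -0.45.

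CHM7, a nuclear envelope protein of the ESCRT family, read 2894 and 3455 in tho2∆, against 1348, 1367 and 1513 in hpr1∆ (1.16 ± 0.09, limma adjusted p = 0.000203). Its average was 5446 in sub2∆ and 384 in WT, so all 3 deletion strains stood above WT by value. Of 13 tested genes of its list, 6 were higher and 0 lower (median 0.14, and 4 higher at a median of 0.29 with the empty-cell term), BRR6 at 0.50 and VPS4 at 0.40 among them, both lost with the empty-cell term (limma adjusted p = 0.111 and 0.164).

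Where all 10 arrays shared the spread, the calls of ADE2, CDC73, CRS5, FUS1, GCV1, GLG1, GPA1, LEU3, MET30, MTQ2, NSR1, PRM1, SPO1, SPS1, SPT16, SUS1, TPS2, TSL1, URA3 and YRA1 were lost, with limma adjusted p between 0.0547 for URA3 and 0.551 for GLG1.

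The 30 other gene lists had medians between -0.23 and 0.43, with at most 50% of their tested members higher and at most 52% lower. By chromosome the median ran from -0.10 on XVI to 0.02 on I. By gene length the medians were -0.06, -0.05, -0.03 and -0.01 from the shortest 25% of tested genes to the longest 25%, and 34, 35, 26 and 17 genes were higher by 2-fold or more in these length classes, against 32, 39, 27 and 14 lower. By level, 67 of the 112 genes higher by 2-fold or more lay in the dimmest 25%, and 41 of the 112 lower lay in the brightest 25%.

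The probe sets without a test were not only dim ones. Those empty on both tho2∆ arrays numbered 452, and their median hpr1∆ level was 864.6, against 1629 for tested probe sets, while another 480 empty on 1 tho2∆ array had a median of 536. Of the 452, 368 were also empty on a sub2∆ array. The brightest of them were probe sets of RPL10, SSB1, EFB1, RPP2B and RPL11B, genes of the ribosome, of its chaperone and of translation elongation, which read between 19460 and 24506 in hpr1∆. RPL10 read 24381, 24370 and 24467 in hpr1∆ and between 23895 and 24791 in WT, and all 5 probe sets were empty on both sub2∆ arrays too. RPL11B and SSB1 were also measured by a second probe set that was filled. That of RPL11B read 23363 and 23797 in tho2∆, against 20867, 21263 and 21143 in hpr1∆ (log2 0.16 ± 0.05, limma adjusted p = 0.0267), and that of SSB1 did not pass the test (-0.13). An empty cell is no measurement of a low level, and the reason for it is not given in the sources used here.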

How the data were processed

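Total RNA was labelled as biotin cRNA and read on single-colour Affymetrix yeast arrays, per the labels. The authors deposited linear intensities, 1 for each probe set of an array, and how these were made (software, background, scaling) is not given in the sources used here. For 5498 probe sets 1 gene is annotated and for 218 none, and symbols were updated through the R64 gene table.

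The intensities were used as deposited, with 16 added before log2. limma 3.58.1 (R 4.3.3) gave moderated tests on the 5 arrays, and the script was tested on simulated data. Members and lists were chosen with earlier results of these data known. Named are the THO/TREX genes, the 15 highest and 15 lowest called genes whose arrays do not overlap and whose higher strain averages at least 100, up to 4 called members per list and direction with the lowest adjusted p, 2 neighbours on each side of the deleted genes, and the 5 brightest genes empty on both tho2∆ arrays. A list takes each gene's brightest probe set. Of 44 tested genes with several probe sets, 13 differed in call between them. The number of arrays limits precision. The planned promoter motifs were not run, as no sequences were used here. The closing section gives the alternatives.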

Additional observations from a re-analysis of the deposited data

How the results depend on the processing

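The count of 2857 called probe sets became 1821 (740 higher, 1081 lower) with all 10 arrays sharing the spread and 1240 (510 and 730) with the empty-cell term. The 2-fold counts of 120 higher and 118 lower became 70 and 205 after quantile normalization, and 44 higher without the dimmest 25% of probe sets. Quantile normalization left 30.7% of calls higher and subtraction of array medians 36.6%, against 42.1%. Leaving out 1 array gave between 2272 (without hpr1∆ replicate 2) and 2789 (without tho2∆ replicate 1) calls, and averaging hpr1∆ replicates 2 and 3 as 1 array, an alternative chosen after seeing the data, gave 2375. A replicate block, in which hpr1∆ replicate 3 has no partner, gave 2366 calls (957 and 1409). Same-numbered arrays correlated by 0.0949 and 0.0203 in their deviations, the strains share only 2 numbers and the labels do not say that these pair the arrays. Signs turned with the empty-cell term for SUS1 (0.11), RAD54 (-0.31), FRE3 (-0.28), LEU3 (-0.22), URA3 (-0.10), MF(ALPHA)2 (-0.079), PRM1 (-0.39), FUS1 (-0.33) and SPO1 (0.008), and after quantile normalization for FRE3 (-0.14), BNA5 (-0.072) and the median of the alpha-specific genes (-0.12). The causes were not tested. Of 175 genes followed, 116 kept sign and call with the empty-cell term and 149 with all 10 arrays sharing the spread. Under the other alternatives that could be computed for all of them, between 161 and 175 did. The 116 include genes empty on WT replicate 2, such as CYC1, OAC1 and YER053C-A, for which the term could not be estimated. No member of the meiosis list was left to test without the dimmest 25%. Intensities carry no signal over background here, so the precision of dim genes is unknown.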
